A study of Mus musculus with 8 samples.

Results

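Muscarinic acetylcholine receptors are the G protein coupled receptors of acetylcholine, and the mouse genome has 5 genes for them, Chrm1 to Chrm5. All 5 were found by symbol among the 32285 genes of the count tables and are described here across neurons and glia of 2 regions, anterior hippocampus and caudate putamen. The tables came from single-nucleus RNA sequencing (10x Genomics 3' v3.1 chemistry) of C57BL/6JN mice aged 3 or 21 months. For each region and age there were 2 libraries, 8 in all, and each library pooled tissue punches from 1 male and 1 female, so that an animal's own level cannot be read. The labels name no transgene and no treatment for any group. Values are given in CPM, the unique molecular identifiers (UMIs) of a gene scaled to a total of 1000000 UMIs for the summed nuclei of a class in a library. Where 4 values follow each other, the 3-month libraries, replicate 1 and then 2, come before the 21-month libraries in the same order.

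Chrm1, Chrm3 and Chrm5 encode receptors that couple to Gq and phospholipase C beta, which releases calcium from stores, activates protein kinase C and closes the M-type potassium channels built from Kcnq subunits. Chrm2 and Chrm4 encode receptors that couple to Gi and Go, which lower cyclic AMP and open potassium channels of the Kcnj family. In the striatum acetylcholine comes mainly from local cholinergic interneurons, where muscarinic receptors also act as autoreceptors. The M4 receptor is known from spiny neurons of the direct pathway, though not from them alone. In the hippocampus it comes mainly from septal axons, and M1 is known as the main receptor of principal neurons. The levels below count RNA in nuclei and say nothing of receptor protein.

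Chrm1 lies on chromosome 19 (chr19:8663789-8683587, plus strand), Chrm2 on chromosome 6 (chr6:36388084-36528414, plus strand) and Chrm3 on chromosome 13 (chr13:9875486-10360847, minus strand) of build GRCm38, by GENCODE vM21. Chrm4 and Chrm5 both lie on chromosome 2 (chr2:91927249-91928688, plus strand, and chr2:112479171-112480769, minus strand). Their GENCODE models span 1.44 kb and 1.60 kb, against 485.36 kb for Chrm3 and 140.33 kb for Chrm2. RefSeq's Chrm4 gene begins 5.06 kb upstream of the GENCODE model and ends 1.15 kb downstream of it, and RefSeq's Chrm5 gene begins 55.59 kb upstream. Reads from those outer parts may have been missed if the tables were counted with models like GENCODE's. A level is therefore compared between classes, and never between members.

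Sequence upstream of a start site is shown for Chrm2, which shares it with an antisense transcript, and for Chrm4, whose gene models differ in their start, with CG dinucleotides in capitals, 5′ to 3′, from RefSeq on GRCm38.p6. The Chrm2 stretch (chr6:36387834-36387990, plus strand, 157 bases) lies within exons of 9330158H04Rik, a transcript that runs in antisense to Chrm2 and overlaps 2.11 kb of it. The Chrm4 stretch (chr2:91921939-91922188, plus strand, 250 bases) ends at RefSeq's start, 5.06 kb from the GENCODE model.
Chrm2: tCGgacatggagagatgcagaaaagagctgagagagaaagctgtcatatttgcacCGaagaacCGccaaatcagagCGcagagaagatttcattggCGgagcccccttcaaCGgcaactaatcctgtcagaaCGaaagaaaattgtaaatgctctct
Chrm4: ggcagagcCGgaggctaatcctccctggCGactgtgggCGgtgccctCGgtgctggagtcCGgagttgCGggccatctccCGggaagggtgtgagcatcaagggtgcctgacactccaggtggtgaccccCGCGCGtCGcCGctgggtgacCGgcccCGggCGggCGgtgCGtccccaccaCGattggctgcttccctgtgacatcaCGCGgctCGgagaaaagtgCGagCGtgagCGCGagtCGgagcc
The Chrm4 stretch held 26 CG dinucleotides, against a median of 6 over 32851 windows of 250 bases, and 3 matches to GGGCGG on either strand, a motif found in 32.7% of windows. TATAAA had no match there and was found in 12.4% of windows. The Chrm2 stretch held 7 CG dinucleotides.

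The 8 libraries held 67205436 to 234811422 UMIs. After filters 97740 nuclei were retained, 6387 to 17012 per library, with median depths of 6664 to 11275 UMIs. In 3-month hippocampal replicate 2 the automatic doublet call was replaced, and 3-month caudate putamen replicate 2 alone came from another version of the counting program; each call by age or region below is given without those libraries where leaving them out ended it. Nuclei were clustered without the 5 members, and clusters were named X-like from lists of markers, of which each named class had at least 3 detected. The limits for a name were set after the data were seen. Class sizes ran from 146 cholinergic-like to 19371 granule-like nuclei for the neurons described, no mossy-like class was found, and 12.7% of hippocampal and 3.50% of striatal nuclei were left unnamed. Pairs of libraries shared 20 to 126 cell barcodes, at most 0.674% of the smaller library.

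Among the Gq-coupled receptors, Chrm1 was highest in the principal neurons of both regions, over the named classes with 15 nuclei in every library. In the hippocampus it stood at 60.5, 61.1, 58.4 and 56.0 CPM in granule-like neurons of the dentate gyrus (mean 59.0 ± 2.3, SD, n = 4) and at 57.2, 59.7, 54.3 and 54.8 CPM in CA1-like pyramidal neurons (56.5 ± 2.5). The ranges of these classes overlapped. CA3-like neurons had 45.6 ± 3.5 CPM, with every library below every CA1-like and granule-like library, but neither fitted difference passed (CA1 minus CA3 0.26 ± 0.17, adjusted p = 0.28, and CA3 minus granule -0.23 ± 0.16, adjusted p = 0.26). Interneurons and all glial and vascular classes of the hippocampus had means of 8.6 to 20.4 CPM. In the caudate putamen, D1-like spiny neurons of the direct pathway held 41.1, 39.0, 35.9 and 36.1 CPM (38.0 ± 2.5) and D2-like spiny neurons of the indirect pathway 39.9, 34.2, 34.4 and 37.0 CPM (36.4 ± 2.7). The libraries of both classes overlapped, and the fitted D1 to D2 difference was 0.04 on the log2 scale (95% interval -0.12 to 0.20, SE 0.08, adjusted p = 0.90). Eccentric-like spiny neurons, a minor spiny class, shared the range at 37.2 ± 6.9 CPM. Striatal interneurons were lowest of the 12 striatal classes with 15 nuclei in every library, with Sst-like neurons (Sst, Npy and Nos1) at 8.7 ± 4.4, Pvalb-like neurons (Pvalb and Pthlh) at 5.6 ± 2.1 and cholinergic-like neurons at 3.6 ± 2.5 CPM. These means lay below the 10.4 CPM of striatal astrocyte-like nuclei, and only the cholinergic-like range lay wholly below the astrocyte-like one.

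Chrm1 passed the test in granule-like and D1-like neurons against astrocyte-like nuclei, the glia with the lowest mean in each region. No other glia were tested against neurons. Granule-like neurons exceeded hippocampal astrocyte-like nuclei by 3.00 ± 0.20 (log2 difference ± SE, edgeR quasi-likelihood test with library as a block, p adjusted by Benjamini-Hochberg over all genes, adjusted p = 7.8e-16). D1-like neurons exceeded striatal astrocyte-like nuclei by 2.28 ± 0.13 (adjusted p = 7.1e-23). CA1-like and granule-like neurons differed by 0.03 (adjusted p = 0.90). Of 45 tests of Chrm1, Chrm2 and Chrm3 over 15 pairs of classes, 16 passed an adjusted p of 0.05, where 43.8% of all genes tested over the same pairs did. A call was thus no more frequent among these receptors than among all genes, and sizes are given with most of the calls. Chrm1 also passed between striatal glia, with less in astrocyte-like (mean 10.4 CPM) than in oligodendrocyte-like nuclei (13.8 CPM). That difference was -0.55 to -0.38 over the runs that left out a library.

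Chrm3, which shares its G protein with Chrm1, was high in CA1-like, CA3-like and D2-like neurons, which also carried Chrm1, but not in granule-like and D1-like neurons. In the hippocampus it stood at 2218, 2118, 2449 and 2272 CPM in CA1-like neurons (2264 ± 138) and at 1902, 1855, 2025 and 1926 CPM in CA3-like neurons (1927 ± 71), but at only 15.99, 22.1, 10.7 and 10.8 CPM in granule-like neurons (14.9 ± 5.4). The CA1-like libraries all lay above the CA3-like libraries, yet the fitted difference of 0.18 ± 0.21 did not pass the test (95% interval -0.24 to 0.60, adjusted p = 0.57). That SE comes from 1 fit of all hippocampal classes and is not the spread of these classes alone. CA1-like neurons exceeded granule-like neurons 171-fold (7.42 ± 0.28, adjusted p = 1.8e-24), the class with a like level of Chrm1. The granule-like level was no higher than that of glia, since hippocampal astrocyte-like nuclei had 20.6, 31.8, 13.7 and 13.3 CPM, and the difference between both classes was -0.20 (adjusted p = 0.45). RNA free in the suspension gives such UMIs to every droplet, and its part in the granule-like level was not tested.

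Hippocampal interneurons stood between these extremes. The Adarb2-like class, whose markers are those of interneurons from the caudal ganglionic eminence, had 1371, 1170, 1370 and 1235 CPM of Chrm3 (1286 ± 101). The Lhx6-like class (Lhx6 and Sox6), which matches interneurons of the medial eminence by its markers, had 685, 445, 290 and 396 CPM (454 ± 167). Every Adarb2-like library lay above every Lhx6-like one, and the Lhx6 to Adarb2 difference was -1.50 ± 0.22 (adjusted p = 2.6e-06).

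**Figure D1:**
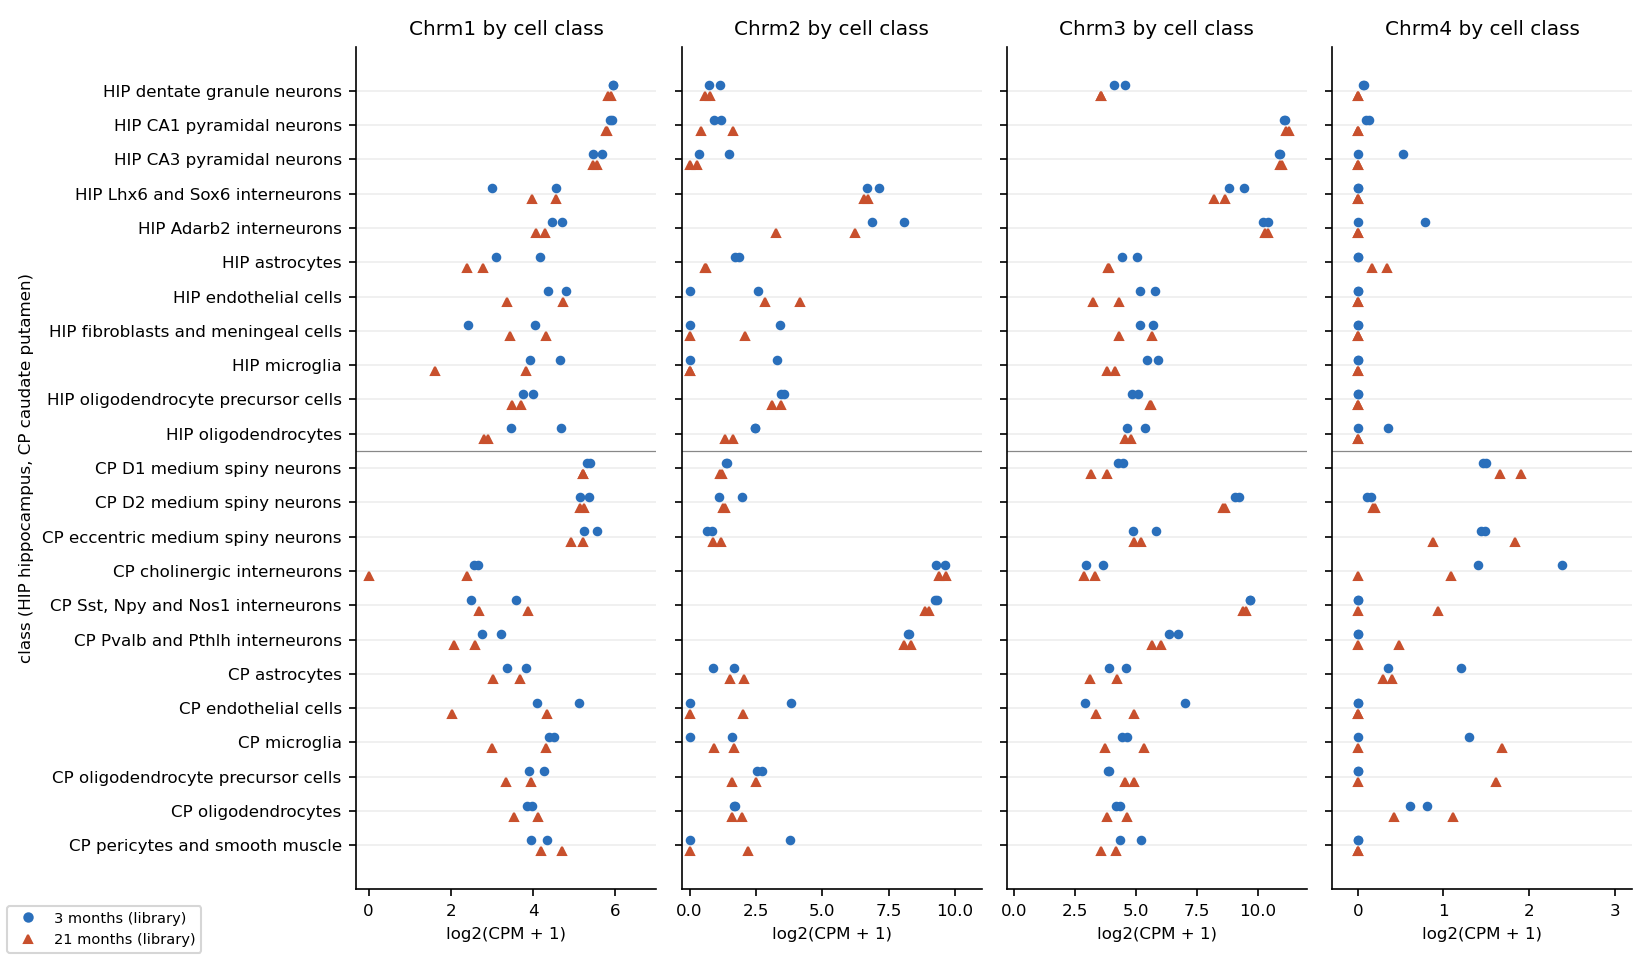
Level of each muscarinic receptor gene by cell class and library, for Chrm1 to Chrm4 on the scale log2(CPM + 1), with 1 point per library, circles for 3 months and triangles for 21 months (class names stand without -like). Mean Chrm3 is 2264 CPM in CA1-like and 14.9 CPM in granule-like neurons, and in the caudate putamen the 3 interneuron classes stand above the others in Chrm2, at 301 to 723 CPM.

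In the caudate putamen Chrm3 separated both spiny classes that Chrm1 did not. D2-like neurons had 534, 595, 374 and 395 CPM (474 ± 107) and D1-like neurons 17.9, 21.4, 7.9 and 13.01 CPM (15.1 ± 5.9). No D1-like library came near the lowest D2-like library, and the difference was 32.5-fold (D1 minus D2 -5.02 ± 0.21, adjusted p = 5.7e-19). The D1-like level was again that of glia, with striatal astrocyte-like nuclei at 15.4 CPM and a D1 to astrocyte difference of 0.36 (adjusted p = 0.25). Sst-like interneurons had the highest level of the region, 813, 806, 726 and 663 CPM (752 ± 71), and Pvalb-like interneurons had 74.8 ± 23.2 CPM. Between these interneurons Chrm3 differed by 3.23 ± 0.23 (adjusted p = 2.9e-13). Cholinergic-like neurons had 11.6, 6.6, 6.4 and 9.0 CPM from 30 UMIs in all, the lowest mean of the 12 striatal classes with 15 nuclei in every library.

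The share of nuclei with a Chrm3 UMI gave the same picture once each nucleus was thinned to 2000 UMIs. It was 96.5% of CA1-like nuclei (94.5 to 97.3% over libraries), 96.3% of CA3-like, 71.5% of Adarb2-like and 42.0% of Lhx6-like nuclei, against 2.26% of granule-like nuclei (1.246 to 3.76%) and 5.05% of hippocampal oligodendrocyte-like nuclei, a class taken as background. Unthinned, the shares were 99.8% in CA1-like and 9.97% in granule-like nuclei, with median depths of 16955 to 21535 and 10019 to 11523 UMIs over libraries, against 2980 to 3361 UMIs in oligodendrocyte-like nuclei. In the caudate putamen 51.9% of D2-like nuclei (42.6 to 61.2%) and 74.0% of Sst-like nuclei held a Chrm3 UMI at 2000 UMIs. D1-like nuclei stood at 2.44% (1.33 to 3.35%) and striatal astrocyte-like nuclei at 3.00%. The mean granule-like and D1-like shares at 2000 UMIs thus lay below those of these glia. Thinning keeps a larger part of a shallow nucleus than of a deep one, so the part of free RNA is not made equal. No expression is read from the granule-like and D1-like shares for the class as a whole.

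Within classes Chrm3 was uneven over clusters. Of 5 granule-like clusters, cluster 11 (729 nuclei, 3.5 to 4.3% of the class in each library) had 167, 196, 98.6 and 142 CPM, while the other 4 clusters had means of 7.8 to 9.6 CPM. In the D2-like class, cluster 9 had 539 CPM, cluster 11 had 384 CPM and cluster 8 had 347 CPM. The eccentric-like class was split as well, with 101 CPM in cluster 18 (125, 81.9, 112 and 84.9) and 11.3 CPM in cluster 15. Both eccentric-like clusters together exceeded D1-like neurons by 1.16 ± 0.25 (adjusted p = 3.3e-04), but the difference was -0.59 (adjusted p = 0.21) when clusters were cut at resolution 2.0. The 4 D1-like clusters had means of 11.4 to 17.8 CPM. These levels are descriptions, because the clusters were cut on all variable genes other than the members.

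**Figure D2:**
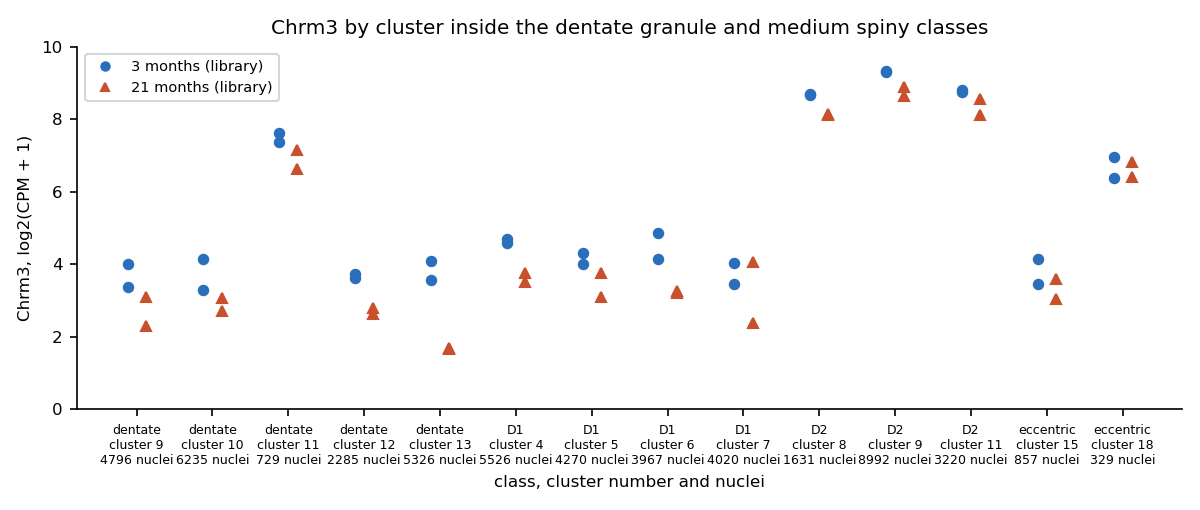
Chrm3 in each cluster of the granule-like, D1-like, D2-like and eccentric-like classes, on the scale log2(CPM + 1), with 1 point per library, circles for 3 months and triangles for 21 months. Granule-like cluster 11 and eccentric-like cluster 18 stand above the other clusters of their classes, and all 3 D2-like clusters stand above all D1-like clusters.

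Chrm5, the remaining Gq-coupled receptor, gave 33 UMIs in the hippocampus and 28 in the caudate putamen over all nuclei retained. It did not pass the filter on low counts in any class. CA1-like neurons held 12 of the hippocampal UMIs, 4 and 8 in the 3-month libraries and 0 in both 21-month libraries. D1-like neurons held 1, 3, 1 and 3 UMIs and D2-like neurons 2, 1, 2 and 4. Without the filter, CA1-like neurons exceeded granule-like neurons by 2.74 ± 0.79 (adjusted p = 0.0035, where 30.8% of all genes passed), on 12 against 5 UMIs.

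Of the Gi-coupled receptors, Chrm2 was highest in the interneurons among the named classes of the caudate putamen. Cholinergic-like neurons had 630, 779, 681 and 804 CPM (723 ± 82), Sst-like neurons 601, 638, 472 and 514 CPM (556 ± 77) and Pvalb-like neurons 310, 300, 326 and 270 CPM (301 ± 23). The first 2 ranges overlapped and the Pvalb-like range lay below both. The next class, oligodendrocyte precursor-like cells (OPC-like), had 4.3 CPM, and the 3 spiny classes had means of 0.9 to 1.7 CPM. Cholinergic-like neurons exceeded D1-like neurons by 8.73 ± 0.15 (adjusted p = 1.4e-39), Sst-like neurons by 0.53 ± 0.11 (adjusted p = 2.4e-04) and Pvalb-like neurons by 1.35 ± 0.11 (adjusted p = 4.3e-14). Sst-like neurons exceeded Pvalb-like neurons by 0.78 ± 0.10 (adjusted p = 5.2e-08). The cholinergic-like class was fitted in a comparison added after the data were seen, because its smallest library held 19 nuclei. In that comparison 9 of 12 tests of members passed, against 36.6% of all genes.

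Cholinergic-like neurons gave 0 of 3515722 UMIs for Chrm5, which allows a level of up to 0.853 CPM. Chrm3 differed by -6.10 ± 0.39 from D2-like neurons (adjusted p = 7.6e-16) and by -1.08 from D1-like neurons (adjusted p = 0.15). Chrm1, with 5, 6, 2 and 0 UMIs, differed by -3.61 from D1-like neurons (adjusted p = 1.6e-14).

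In the hippocampus Chrm2 was higher in both named interneuron classes than in CA1-like neurons, in the Adarb2-like class from few nuclei. Lhx6-like neurons had 139, 102, 104 and 94.5 CPM (110 ± 20), from 23.5 to 33.0% of nuclei with a UMI over libraries. Adarb2-like neurons had 267, 116, 8.7 and 74.5 CPM (116 ± 109), and the libraries disagreed about them. Those values came from 370, 345, 7 and 70 UMIs in 7 of 97, 18 of 178, 3 of 40 and 4 of 45 nuclei, so a few nuclei set each level. The difference between both interneuron classes was -0.05 ± 0.26 (adjusted p = 0.96). This SE and the tests against CA1-like neurons come from 1 fit of all hippocampal classes. They do not measure the spread between the Adarb2-like libraries. Against CA1-like neurons the Lhx6-like class was higher by 6.70 ± 0.39 (adjusted p = 7.1e-16) and the Adarb2-like class by 6.75 (adjusted p = 1.3e-15), while Chrm3 and Chrm1 were lower in both classes than in CA1-like neurons. Granule-like, CA1-like and CA3-like neurons had means of 0.6 to 1.2 CPM of Chrm2. Some unnamed clusters of the hippocampal libraries had means above those of both interneuron classes. Cluster 0 had 414 CPM and cluster 22 had 185 CPM, a comparison made after their values were seen and not tested. Whether these nuclei came from the hippocampus itself was not tested.

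At 2000 UMIs per nucleus Chrm2 was found in 69.5% of cholinergic-like, 59.8% of Sst-like, 39.7% of Pvalb-like, 12.6% of Lhx6-like and 3.89% of Adarb2-like nuclei. D1-like nuclei stood at 0.31% and striatal astrocyte-like nuclei at 0.43%. Unthinned, the shares were 97.6%, 92.9%, 82.4%, 27.9% and 8.43% in the same order of interneurons.

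Chrm4 had its highest mean in D1-like neurons at a low count (2.12 CPM). Cholinergic-like (1.75 CPM) and eccentric-like neurons (1.73 CPM) overlapped with them. The caudate putamen gave 628 UMIs of it and the hippocampus 27, where no class with 15 nuclei in every library had a mean above 0.18 CPM. D1-like neurons had 1.75, 1.83, 2.16 and 2.74 CPM (103, 155, 112 and 153 UMIs), and D2-like neurons 0.079, 0.112, 0.133 and 0.153 CPM (3, 7, 5 and 6 UMIs). Every D1-like library lay above every D2-like library, and the D2-like mean of 0.12 CPM lay below those of microglia-like (0.92), oligodendrocyte-like (0.70) and astrocyte-like nuclei (0.53) of the region. Pooled over libraries the levels were 2.08 CPM (95% Poisson interval 1.91 to 2.27) and 0.118 CPM (0.0733 to 0.181), intervals that cover counting error only. Chrm4 did not pass the filter in the comparisons of classes. Without the filter, D1-like neurons exceeded D2-like neurons by 4.01 ± 0.28 (adjusted p = 3.2e-32, where 6.58% of all genes passed) and striatal astrocyte-like nuclei by 2.40 ± 0.40 (adjusted p = 2.8e-08, where 53% passed).

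Chrm4 was spread over all 4 D1-like clusters, with 86 to 170 UMIs in each. Eccentric-like neurons had 1.71, 1.80, 0.84 and 2.56 CPM, and all 26 UMIs lay in cluster 15 and none in cluster 18, the cluster with the higher Chrm3. The eccentric minus D1 difference did not pass without the filter (-0.43 ± 0.33, adjusted p = 0.47). Cholinergic-like neurons had 4, 2, 0 and 1 UMIs (4.23, 1.65, 0 and 1.12 CPM). Without the filter they exceeded D2-like neurons by 3.65 ± 0.85 (adjusted p = 1.3e-04) on those 7 UMIs, where 30% of all genes passed, and their difference from D1-like neurons did not pass (-0.34 ± 0.58, adjusted p = 0.83). Unthinned, 2.87% of D1-like and 0.14% of D2-like nuclei held a Chrm4 UMI, and at 2000 UMIs 0.49% and 0.03%.

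Receptors were also counted in the same nuclei. At 4000 UMIs per nucleus, 81.1% of Sst-like nuclei held Chrm2, 89.1% held Chrm3 and 73.2% held both, where the product of the shares is 72.3%. In D2-like nuclei Chrm1 was found in 13.2%, Chrm3 in 70.5% and both in 9.48%, with a product of 9.28%. In Pvalb-like nuclei Chrm2 was found in 59.9%, Chrm3 in 17.1% and both in 8.81%, with a product of 10.3%. Striatal astrocyte-like nuclei at this depth held Chrm1 in 3.39%, Chrm2 in 0.67% and Chrm3 in 4.73%. Over the 23 classes with 15 nuclei in every library, Chrm1 and Chrm2 had a correlation of r = -0.59, Chrm1 and Chrm3 of 0.38 and Chrm2 and Chrm3 of 0.21, as descriptions over classes that share libraries and depth.

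In glia the levels of Chrm1, Chrm2 and Chrm3 were set beside those of the neuron markers, a list that also holds genes higher in some glia than in the whole library. In hippocampal astrocyte-like nuclei they stood at 18.95, 5.3 and 4.3% of their level over the whole libraries, beside a median of 24.9% for 18 markers (range 3.47 to 291%). In striatal astrocyte-like nuclei they stood at 31.5, 9.6 and 7.9%, beside 56.9% for 16 markers (5.06 to 590.2%). Every value lay below its marker median in these nuclei. Oligodendrocyte-like nuclei had 25.7, 11.4 and 6.4% in the hippocampus beside 23.8% (5.06 to 529.9%), and 42.2, 11.5 and 9.8% in the caudate putamen beside 50.9% (7.14 to 176.9%). Microglia-like nuclei had 29.4, 8.3 and 6.9% beside 34.6% (9.35 to 408.9%), and 50.8, 6.5 and 12.7% beside 87.4% (9.68 to 272.6%). The part of free RNA in these levels was not tested. OPC-like cells of the hippocampus were the glial class with the highest Chrm2, 9.8, 10.7, 7.7 and 9.9 CPM, or 35.6% of the library level beside 33.6% for the neuron markers (3.34 to 778%).

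Age was compared as 21 minus 3 months within each class. In the hippocampus 1 of 27 tests of members passed, a lower one, where 1.02% of all tests passed and 0.434% were lower. In the caudate putamen 1 of 26 passed, also lower, where 1.11% passed and 0.575% were lower. Unadjusted p-values under 0.05 were found in 9 and 6 of these tests, beside 11.1% and 13% of all tests. Each region had 2 libraries against 2. Glia and endothelial-like nuclei were fitted over all 8 libraries with a shared spread, and the other classes over the libraries of their region. The p-values rest on a spread between pools of animals that edgeR moderates over genes.

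The call in the caudate putamen was Chrm3 in D2-like neurons, which fell from 534 and 595 CPM at 3 months to 374 and 395 CPM at 21 months. Both 3-month libraries lay above both 21-month libraries. The fall was 1.49-fold (-0.58 ± 0.09, adjusted p = 0.023), where 4.64% of the genes tested in the class were called. Within D2-like cluster 9 the change was -0.56 (adjusted p = 0.0019, 11.9% of genes called) and within cluster 8 it was also -0.57 (adjusted p = 0.020, 0.575% called), while in cluster 11 -0.43 did not pass (adjusted p = 0.23). Cluster 8 held 27.1 and 24.8% of the class in both replicates 1 and 2.1 and 1.8% in both replicates 2. The call for the class was lost without 3-month replicate 2 (-0.47, adjusted p = 0.090), 21-month replicate 1 (-0.55, adjusted p = 0.083) or 21-month replicate 2 (-0.61, adjusted p = 0.086), each time with a lone library that was assumed to vary like the others, and stood without 3-month replicate 1 (-0.67, adjusted p = 0.032).

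Chrm3 in D1-like neurons, at the level of glia, differed by -0.94 ± 0.29 (17.9, 21.4, 7.9 and 13.01 CPM, adjusted p = 0.21 in edgeR and 0.0057 in DESeq2) for the class. In D1-like cluster 4 alone it fell by 1.06 (adjusted p = 2.6e-04, 4.84% of genes called), and in clusters 5, 6 and 7 it did not pass (-0.69, -1.42 and -0.41). The D2 minus D1 difference of the age effect was 0.38 ± 0.36 (adjusted p = 1), so that no difference between the spiny classes was shown. Fits of single clusters were added after the data were seen.

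**Figure D3:**
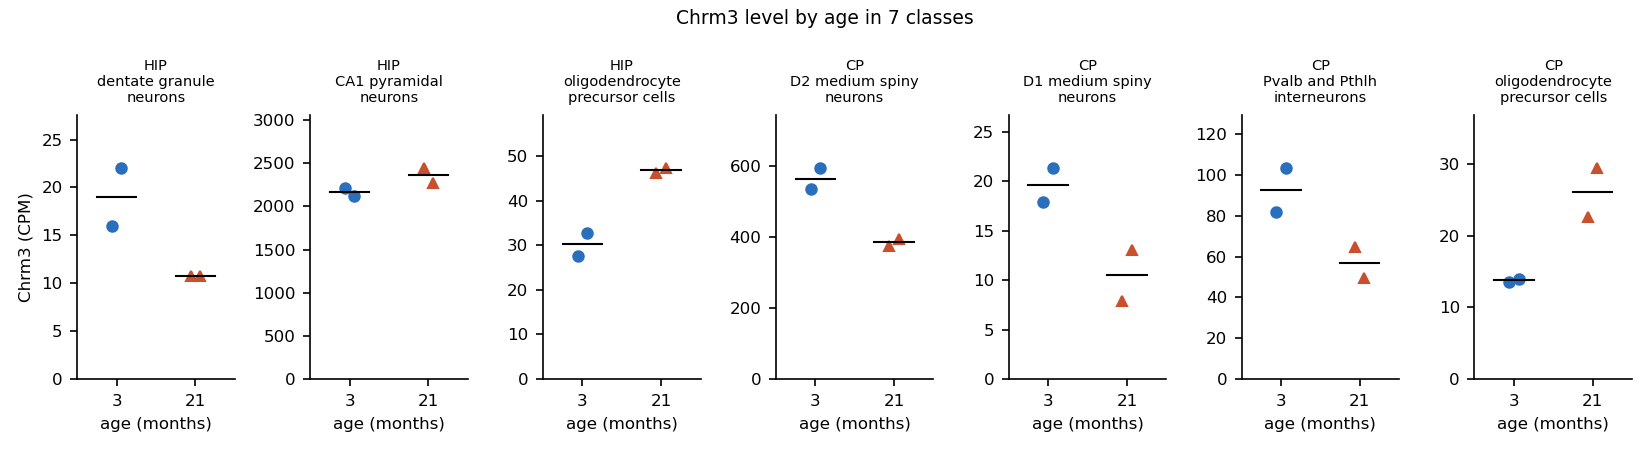
Chrm3 in CPM by age, on an axis that starts at 0 in each of 7 classes, with 1 point per library and a horizontal line at the mean of each age. D2-like neurons have 534 and 595 CPM at 3 months and 374 and 395 CPM at 21 months, granule-like neurons lie between 10.7 and 22.1 CPM, and the OPC-like classes of both regions are higher at 21 months.

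The call in the hippocampus was Chrm3 in granule-like neurons, which fell 1.72-fold (-0.78 ± 0.13, adjusted p = 0.0089), where 4.41% of the genes tested in the class were called. The values of 15.99 and 22.1 CPM at 3 months and 10.7 and 10.8 CPM at 21 months did not overlap, but they lie at the level of glia given above. Glia of the same libraries did not all go one way. Chrm3 went from 20.6 and 31.8 to 13.7 and 13.3 CPM in astrocyte-like nuclei (-0.89, adjusted p = 0.38) and from 42.8 and 58.2 to 16.5 and 13.1 CPM in microglia-like nuclei (-1.75 ± 0.51, adjusted p = 0.33). In oligodendrocyte-like nuclei it had 24.1, 40.4, 26.8 and 22.6 CPM (-0.35, adjusted p = 0.60), and in OPC-like cells it was higher at 21 months (27.6, 32.8, 46.3 and 47.4 CPM, 0.69 ± 0.26, adjusted p = 0.24). The part of free RNA in the granule-like difference was not tested. The call was lost without 21-month replicate 1 (-0.78, adjusted p = 0.135) and without 21-month replicate 2 (-0.79, adjusted p = 0.089).

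The shares of the granule-like clusters also differed by age. Both ages were clustered together with no correction for library or age. A change in makeup and a shift of like nuclei from one cluster to another therefore cannot be told apart. Cluster 9 made up 34.2 and 33.8% of the class at 3 months and 7.2 and 6.9% at 21 months, and cluster 13 made up 34.4 and 42.2% and then 4.0 and 4.8%. Clusters 10 and 12 had the larger shares at 21 months. Within clusters Chrm3 fell in cluster 12 (-1.07, adjusted p = 0.0037, 2.45% of genes called) and cluster 13 (-2.61, adjusted p = 0.0057, 0.504% called). In clusters 9, 10 and 11 it did not pass (-1.04, -0.96 and -0.59). Without cluster 11, the cluster with the highest Chrm3, the class still fell by 1.06 (adjusted p = 0.025, 4.47% called). In CA1-like neurons, with the highest level, Chrm3 was 0.21 ± 0.09 higher (adjusted p = 0.35), and the CA1 minus granule difference of the age effect was 0.94 ± 0.32 (adjusted p = 0.28). None of the 6 tests of a class by age difference passed in edgeR or DESeq2, where 0.255% of all genes did and 1 of the 6 had an unadjusted p under 0.05.

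In the other neuron classes no member was called by age in edgeR. Chrm2 in cholinergic-like neurons differed by 0.10 ± 0.14 (adjusted p = 0.95) and in Sst-like neurons by -0.31 ± 0.14 (adjusted p = 0.65). Chrm3 in Lhx6-like neurons differed by -0.63 ± 0.24 (adjusted p = 0.94) and in Pvalb-like neurons by -0.70 ± 0.16 (adjusted p = 0.16). Chrm1 differed by -0.04 ± 0.06 in granule-like neurons, -0.01 ± 0.10 in CA1-like neurons and -0.18 ± 0.07 in D1-like neurons, the last with an adjusted p of 0.21. Chrm4 in D1-like neurons was 0.42 ± 0.19 higher, with both 21-month libraries above both 3-month libraries (adjusted p = 0.27). Chrm2 in Adarb2-like neurons differed by -2.02 ± 1.04 (adjusted p = 0.84).

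**Figure D4:**
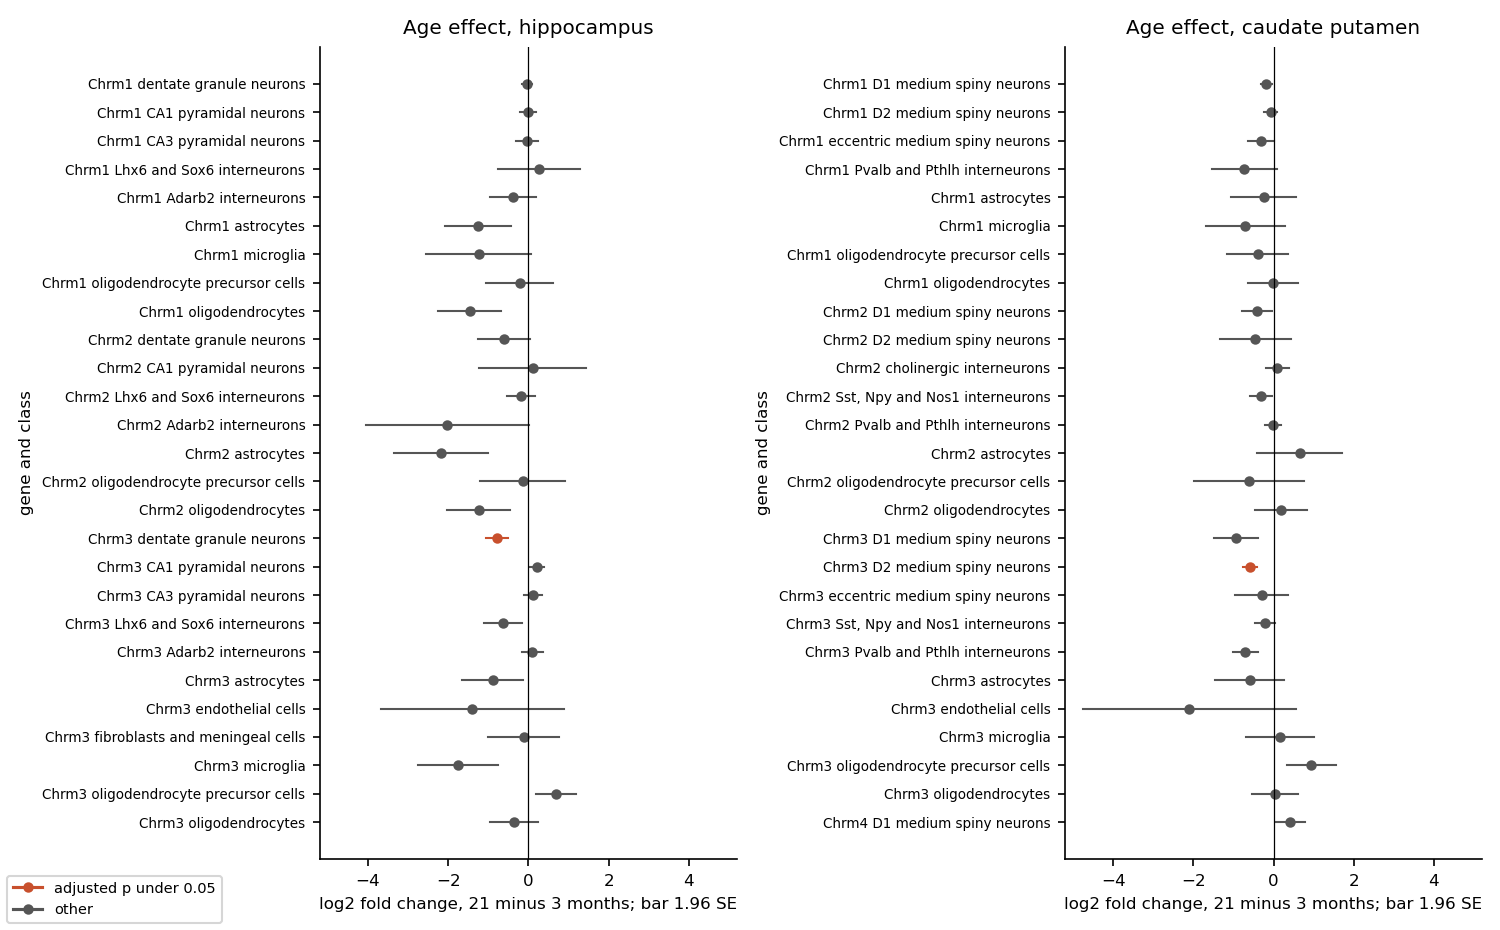
Difference of Chrm1 to Chrm4 between 21 and 3 months in each class where the gene was tested, on the log2 scale, with bars for the 95% interval. Points in orange passed the test, Chrm3 in granule-like and in D2-like neurons, at -0.78 and -0.58.

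Glia were fitted over all 8 libraries, with the mean of the age effects of both regions as a further comparison. Chrm3 in OPC-like cells rose 1.76-fold in that mean (0.82 ± 0.20, adjusted p = 0.020), the only one of 12 tests that passed, where 3.01% of all genes passed over the classes and 2.1% in OPC-like cells. Its values were 27.6, 32.8, 46.3 and 47.4 CPM in the hippocampus and 13.5, 14.0, 22.6 and 29.5 CPM in the caudate putamen. The ages did not overlap in either region, though neither region passed alone (0.69 ± 0.26, adjusted p = 0.24, and 0.94 ± 0.31, adjusted p = 0.23). The call was lost without either 21-month hippocampal library (adjusted p = 0.065 and 0.060), either 3-month caudate putamen library (0.068 and 0.0998) or 21-month caudate putamen replicate 2 (0.14). It was also lost in DESeq2 (adjusted p = 0.22) and with thinned nuclei (0.37). No difference between the regions in the age effect of a member in glia passed in edgeR or DESeq2 (0 of 12, where 0% of all genes passed). In edgeR 4 of the 12 had an unadjusted p under 0.05, beside 5.33% of all tests.

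Between regions, OPC-like Chrm3 was lower in the caudate putamen than in the hippocampus, with a difference of -1.15 ± 0.29 at 3 months (adjusted p = 0.016) and of -1.02 ± 0.20 in the mean of both ages (adjusted p = 6.5e-04). At 21 months the difference of -0.90 did not pass (adjusted p = 0.082). Over whole libraries Chrm3 stood at 359 to 591 CPM in the hippocampus and at 138 to 243 CPM in the caudate putamen. OPC-like cells had 9.0 and 11.4% of that level, beside medians of 33.6 and 45.1% for the neuron markers. The part of free RNA in the OPC-like difference was not tested. Chrm2 in astrocyte-like nuclei was 2.18 ± 0.62 higher in the caudate putamen at 21 months (adjusted p = 0.033), from 0.49 and 0.53 CPM in the hippocampus and 1.89 and 3.16 CPM in the caudate putamen. At 3 months the sign was the other way (-0.66 ± 0.52, adjusted p = 0.51), from 2.28 and 2.62 CPM in the hippocampus and 2.17 and 0.84 CPM in the caudate putamen, and the mean of both ages did not pass (0.76 ± 0.42, adjusted p = 0.24). These levels are low, at a mean of 5.3% of the whole-library level in the hippocampus and 9.6% in the caudate putamen. The part of free RNA in them was not tested. Each of the 3 comparisons of regions called 1 of 12 member tests, where 6.16%, 6.09% and 11.3% of all genes passed at 3 months, at 21 months and in the mean. The OPC-like call at 3 months was lost without 3-month hippocampal replicate 2 (-1.02, adjusted p = 0.20), without either 3-month caudate putamen library (adjusted p = 0.083 and 0.28), in DESeq2 (0.31) and with thinned nuclei (0.084). The astrocyte-like call was lost without 21-month hippocampal replicate 1 (adjusted p = 0.28) or 2 (0.12), without 21-month caudate putamen replicate 2 (0.21), in DESeq2 (0.16) and at resolution 2.0 (1.23, adjusted p = 0.16).

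Nuclei of both sexes could be parted within each pool by Xist and Y-linked UMIs. None of 14 tests of members between female and male nuclei passed in edgeR or DESeq2, where 0.0887% of all genes did, and 1 had an unadjusted p under 0.05, Chrm3 in astrocyte-like nuclei (0.41 higher in female nuclei).

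The other genes of muscarinic signalling were followed in 5 lists of 68 genes. In the hippocampus 7 of 174 tests of Gq pathway genes passed by age, 5 higher and 2 lower, and 4 of 119 tests of genes that end receptor signalling, all lower. DESeq2 called 7 higher and 5 lower of the Gq genes, and 1 higher and 4 lower of the genes that end receptor signalling. Over all genes 1.02% of the hippocampal tests and 4.41% of those in granule-like neurons passed. The Gi pathway gave 1 of 178 tests (higher). Synthesis and release of acetylcholine gave 1 of 38, the choline transporter Slc44a1 in OPC-like cells (-0.59, adjusted p = 0.021, and 0.13 in DESeq2), named after its value was seen. Nicotinic receptor subunits gave 0 of 26 in edgeR and in DESeq2, with 5 unadjusted p-values under 0.05. In granule-like neurons Kcnq5, an M-channel subunit, fell by 0.91 (adjusted p = 5.0e-05), Rgs6, a regulator that ends G protein signals, by 0.80 (adjusted p = 0.0025) and Arrb2, a beta-arrestin, by 0.43 (adjusted p = 0.015). In the same neurons Dgkb, a diacylglycerol kinase, rose by 0.30 (adjusted p = 0.0075), Adcy2, an adenylyl cyclase, by 0.31 (adjusted p = 0.014) and Plcb4, a phospholipase C beta, by 0.84 (adjusted p = 0.024). Elsewhere Rgs6 fell by 1.55 in CA3-like neurons (adjusted p = 3.9e-04) and Rgs7 by 0.78 in astrocyte-like nuclei (adjusted p = 0.017), and Itpr2 rose by 0.52 in CA1-like neurons (adjusted p = 0.027) and Plcb4 by 0.62 in oligodendrocyte-like nuclei (adjusted p = 0.049).

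In the caudate putamen 3 of 129 tests of genes that end receptor signalling passed, all lower and all in D2-like neurons, where 4.64% of all genes passed against 1.11% over the region. They were Grk5, a receptor kinase (-0.52, adjusted p = 0.032), and the RGS proteins Rgs4 (-0.38, adjusted p = 0.038) and Rgs2 (-0.66, adjusted p = 0.045). DESeq2 called 4 tests of this list, all lower. Of 173 tests of Gq pathway genes 2 passed, both higher in oligodendrocyte-like nuclei, Plcb4 by 0.87 (adjusted p = 0.0051) and Prkca by 0.46 (adjusted p = 0.039). None of 171 tests of the Gi pathway, 42 of synthesis and release or 29 of nicotinic subunits passed in edgeR, with 17, 8 and 2 unadjusted p-values under 0.05, and DESeq2 called 0, 2 and 0 of them.

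The genes most like each member were ranked by Pearson's r of log2 levels over the 23 classes, among 14734 genes. The gene nearest to Chrm2 was 9330158H04Rik (r = 0.97), the antisense transcript that overlaps it, followed by Cgn (0.93), Rtbdn (0.93), Ankrd24 (0.90) and Hcn4 (0.90), a pacemaker channel. Nearest to Chrm3 were Gm47405 (0.98), which lies within an intron of Chrm3 on the same strand, and Gm26861 (0.90), which overlaps it in antisense, then Cntnap5c (0.81), Nell1 (0.81) and Nell1os (0.81). Nearest to Chrm1 were A830036E02Rik (0.90), Cnksr2 (0.90), Ppp3ca (0.89), Gm26652 (0.89) and Gm12122 (0.88). Nearest to Chrm4 were Drd3 (0.80), a dopamine receptor, Gm6260 (0.80), Il20ra (0.77), Isl1 (0.77) and Impg1 (0.76). Isl1, a transcription factor of direct pathway neurons, is itself on the list of markers that named the D1-like class. Ranking by Spearman's rho instead kept 4 of the 5 genes for Chrm1 and 3 for Chrm3, and 0 for Chrm2 and Chrm4. These values describe classes that share libraries, and Chrm5 had too few UMIs for its list to be given.

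The transcripts that overlap the members were counted at lower levels. Gm47405 stood at 29.9 CPM in CA1-like neurons (32.7, 26.0, 32.2 and 28.6), 25.2 in CA3-like, 15.1 in Adarb2-like, 9.6 in Sst-like and 7.0 CPM in D2-like neurons. In D2-like neurons it had 7.46, 9.39, 5.47 and 5.68 CPM, a difference of -0.63 ± 0.15 with age that did not pass (adjusted p = 0.057). 9330158H04Rik stood at 97.0 CPM in Sst-like, 74.6 in cholinergic-like, 32.4 in Pvalb-like, 16.5 in Lhx6-like and 14.8 CPM in Adarb2-like neurons, where its libraries (33.9, 13.5, 0 and 11.7) had the order of those of Chrm2. Between cholinergic-like and Sst-like neurons its difference did not pass the test (-0.18, adjusted p = 0.53), where Chrm2 was higher in cholinergic-like neurons (0.53, adjusted p = 2.4e-04). Whether introns and strand entered the counting was not given in the sources used here, so reads of a member and of a transcript that overlaps it cannot be told apart.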

How the data were processed

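The deposited files held UMI counts per gene and nucleus, filtered 10x matrices of 8 libraries, each from 1 male and 1 female. Per the file headers the counts came from Cell Ranger 6.1.2, or 7.0.0 for 3-month caudate putamen replicate 2, while the submitters' processing notes name 4.0.0 and mm10. Whether introns were counted is not given in the sources used here.

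Nuclei with under 500 genes or over 5% mitochondrial UMIs and called doublets (2.55 to 15.6% per library) were removed. For 3-month hippocampal replicate 2 the automatic doublet threshold, which would have called 71.1%, was replaced. Nuclei were clustered per region with scanpy 1.11.5 (3000 variable genes without the members, 40 components, 20 neighbours, leidenalg 0.10.2 at resolution 1.0). The components were not corrected for library or age. A cluster name needed 3 markers at 10 CPM and a log2 fold of 1, limits set after the data were seen. Clusters named only as spiny neurons were parted into D1-like and D2-like with a lower fold limit, against the spiny clusters alone. Counts were summed per class and library and tested with edgeR 4.0.16 (TMM, filterByExpr, robust quasi-likelihood fit, Benjamini-Hochberg over all genes tested, 20 nuclei in each library) in R 4.3.3. An SE is the log2 difference over the root of F. Intervals of fitted differences are 1.96 SE to either side, which is narrower than 95% in the fits by age with few libraries. Pairs of classes had library as a block and were tested in 1 fit of all classes of a region, with 1 estimate of the spread per gene. The scripts were tested on simulated counts.

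Members and gene lists were chosen with earlier results of these data known. Named genes were the 5 members, up to 5 pathway genes per direction and region by adjusted p, and the 5 genes most like each member. The alternatives were DESeq2 1.42.0, RLE scaling, no filter, thinning to 2000 UMIs, doublets retained, other resolutions, members in clustering and each library left out. Cholinergic-like fits with 15 nuclei and fits of single clusters were added after the data were seen.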

Additional observations from a re-analysis of the deposited data

How the results depend on the processing

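Calls by age moved with most choices, and the cause was not tested. The hippocampal count of 1 became 2 in DESeq2, 7 with no low-count filter, 2 with thinned nuclei and 0 to 4 with a library left out. The caudate putamen count of 1 became 2 in DESeq2, with no filter and with thinned nuclei, and 0 to 3 with a library left out. The count of 1 in glia over both regions became 0 in DESeq2, with thinned nuclei and with each region fitted alone, 5 with no filter and 0 to 3 with a library left out. The 3 calls between regions in glia became 10 with no filter, 6 with doublets retained and 2 to 5 with a library left out. The 0 differences of age effects became 1 with no filter. The 16 calls between pairs of classes were 16 or 17 in the runs that left out a library, and 25 with the added cholinergic pairs. One difference reversed, Chrm3 in eccentric-like against D1-like neurons, at -0.59 with resolution 2.0.

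With replicate number as a replicate block the counts by age were 4 in the hippocampus, 2 in the caudate putamen and 3 in glia. Chrm3 differed by -0.57 in D2-like (adjusted p = 3.7e-07) and by -0.76 in granule-like neurons (5.3e-05). The block ended 3 of the 6 single calls by age or region, Chrm2 in astrocyte-like nuclei at 21 months (2.20, adjusted p = 0.062) and Chrm3 in OPC-like cells between regions at 3 months (-1.22, 0.14) and over both ages (-1.09, 0.054). The labels do not say that a number marks a shared batch. Deviations of same-numbered libraries correlated at 0.0352 to 0.438 over 8 classes of the caudate putamen and at -0.0604 to 0.376 over 6 of the hippocampus. Low counts limit Chrm5 in every class and Chrm4 outside D1-like neurons.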

Other observations

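Some clusters that the marker lists did not name had high levels of Chrm2 and Chrm3. In the hippocampal libraries, cluster 0 (857 nuclei, led by Otx2os1, Tfap2d, Gata3 and Pax7) had 414 ± 13 CPM of Chrm2 and 679 ± 56 CPM of Chrm3 (SD, n = 4). Cluster 20 of the same libraries (471 nuclei, led by Rxfp1) had 1775 CPM of Chrm3 and 1.0 CPM of Chrm2, while cluster 22 (626 nuclei, led by Adamts19 and Vipr2) had 295 and 185 CPM. In the caudate putamen, cluster 20 (638 nuclei, led by Npffr2 and Col24a1) had 521 CPM of Chrm3 and 92 CPM of Chrm2. These clusters were chosen after their values were seen, and the tissue that their nuclei came from was not tested.

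The genes that make and clear acetylcholine gave the source cells of the ligand. Cholinergic-like neurons had 439, 468, 334 and 463 CPM of Chat, the enzyme that makes acetylcholine, and 404 ± 31 CPM of Slc5a7, the choline transporter of cholinergic terminals. D1-like neurons had 6.7, 6.8, 8.9 and 15.4 CPM of Chat and D2-like neurons 6.8, 6.0, 8.6 and 15.0 CPM. Slc5a7 was also found in OPC-like cells, at 27.9 CPM in the hippocampus and 18.2 CPM in the caudate putamen. Ache, which breaks acetylcholine down, stood at 67.6 ± 7.6 CPM in cholinergic-like, 25.9 CPM in Sst-like and 20.5 CPM in striatal OPC-like nuclei.

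Ependymal-like nuclei of the caudate putamen (99 nuclei) had 6.37 to 621 CPM of Chrm3 over libraries.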
